A study of Rattus norvegicus with 6 samples.

Results

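The solute carrier (SLC) transporters of glucose, lactate and inorganic ions were examined in RNA sequencing libraries of INS-1 cells, a rat insulinoma line that makes and secretes insulin. Genes were taken by symbol from 10 SLC families, namely Slc2, Slc4, Slc5, Slc8, Slc9, Slc12, Slc16, Slc20, Slc24 and Slc26. They had to hold at least 10 counts over the 6 libraries. Of 21553 genes in the deposited table, 79 carried a matching symbol and 72 reached that minimum. The symbol rule also takes 3 genes that encode no transporter, the scaffold genes Slc9a3r1 and Slc9a3r2 and the adaptor gene Slc4a1ap. They were kept and are named as such. A filter on low counts left 58 of the 72 genes in the test, and the other 14 are given by their values only.

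Glucose enters beta cells by facilitated diffusion through SLC2 transporters, and in rodents the main one is Slc2a2 (GLUT2), a low-affinity carrier that lets uptake follow blood glucose. SLC5 members couple uptake to the sodium gradient, SLC16 members carry lactate and other monocarboxylates with protons or, in some cases, amino acids. The remaining families exchange or cotransport calcium, protons, bicarbonate, chloride, phosphate and sulfate, and they set the pH, volume, chloride content and calcium clearance of an excitable secretory cell.

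The series compared 3 libraries of INS-SMA cells with 3 libraries of INS-MOCK cells, described as biological replicates. INS-SMA cells were given α-SMA, a smooth muscle actin, through a lentivirus, and their genotype is labelled SMA overexpression. INS-MOCK cells are labelled wild type, and the labels do not state whether they were given a virus. Nor do they state whether INS-SMA is 1 clone or a pool, or which promoter drives the transgene. Both groups were grown in the same medium with serum. Means are given ± SD over the 3 libraries of a group.

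Values are in CPM, counts relative to library sizes that were scaled by TMM factors (trimmed mean of M values). Library totals ran from 24719503 to 39608609 counts, with 15851326 to 25075476 in the genes tested, and 3 counts corresponded to 0.117 to 0.180 CPM. The row named ACTA2, the human spelling of the α-SMA gene, had 103 to 167 counts in the INS-MOCK libraries and 941093 to 1141322 in the INS-SMA libraries. Among the 8 beta cell markers that the table holds, 5 fell and 0 rose in the test described below. That is 62.5% of them, beside 55.1% of all tested genes in either direction and 27% lower. Their summed level was 26994 to 29285 CPM in INS-MOCK and 2034 to 2837 CPM in INS-SMA, most of it from Ins1 and Ins2. The other lists of cell markers summed to 692 to 749 CPM in INS-MOCK and 24.4 to 30.2 CPM in INS-SMA for other islet cells (3 genes in the table, mostly Gcg). For fibroblasts and stellate cells (7 genes) the sums were 60.4 to 86.5 and 19.7 to 33.3 CPM, most of it from Thy1 and Pdgfra, which fell. The collagen gene Col3a1 was called higher (0.124, 0 and 0.085 CPM in INS-MOCK, 2.76, 3.67 and 2.10 CPM in INS-SMA). Col1a1, Col1a2, Dcn and Lum were too low to test, each with a higher mean in INS-SMA. For acinar and duct cells (2 genes) the sums were 0 and 7.08 to 9.45 CPM, and for immune and endothelial cells (5 genes) 0.124 to 1.43 and 2.61 to 3.67 CPM. The acinar and duct signal came from Cftr, while Prss1 had no counts in INS-MOCK and reached 0.184 CPM at most in INS-SMA. Of the immune and endothelial list Ptprc was called higher, with 0 counts in INS-MOCK and 31, 34 and 29 in INS-SMA. Ptprc and Col3a1 entered the test through their INS-SMA counts alone, so their calls are no separate support for a rise. Adgre1 (means of 0.105 CPM in INS-MOCK and 1.00 CPM in INS-SMA) and Cd68 (0.568 and 0.315 CPM) did not pass. Cdh5 and Kdr were too low to test. No marker in the table was at 0 in all 6 libraries. The part of these shifts in the results below was not tested. In bulk RNA, fewer cells that express a gene and less RNA per cell cannot be told apart.

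Of the 58 tested genes, 10 rose and 10 fell in INS-SMA at an adjusted p under 0.05 in edgeR's quasi-likelihood test, which is 34.5% of them. Over all 13363 tested genes the share was 55.1%, with 28.1% higher and 27% lower. The difference between these shares was not tested. Rises of at least 2-fold were seen in 7 genes (among them Slc2a4, Slc4a11, Slc5a12, Slc8a2, Slc26a4 and Slc26a7) and falls of at least 2-fold in 5 (Slc2a1, Slc2a5, Slc8a1, Slc12a2 and Slc16a12). Over all 13363 tested genes, 2078 passed with a rise and 1667 with a fall of at least 2-fold. The counts of rises include Slc5a12, which entered the test through its INS-SMA counts alone. The median log2 fold change was -0.03, the same with Slc5a12 at the floor-based value given below, beside 0.03 for all tested genes. The groups did not overlap in 28 of the 58 genes (48.3%), beside 65.3% of all tested genes. When each gene was represented by its most abundant transcript row and not by the sum of its rows, 7 rose and 6 fell. In that fit 5822 of all 13255 tested genes passed, in place of 7359 of 13363.

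**Figure D1:**
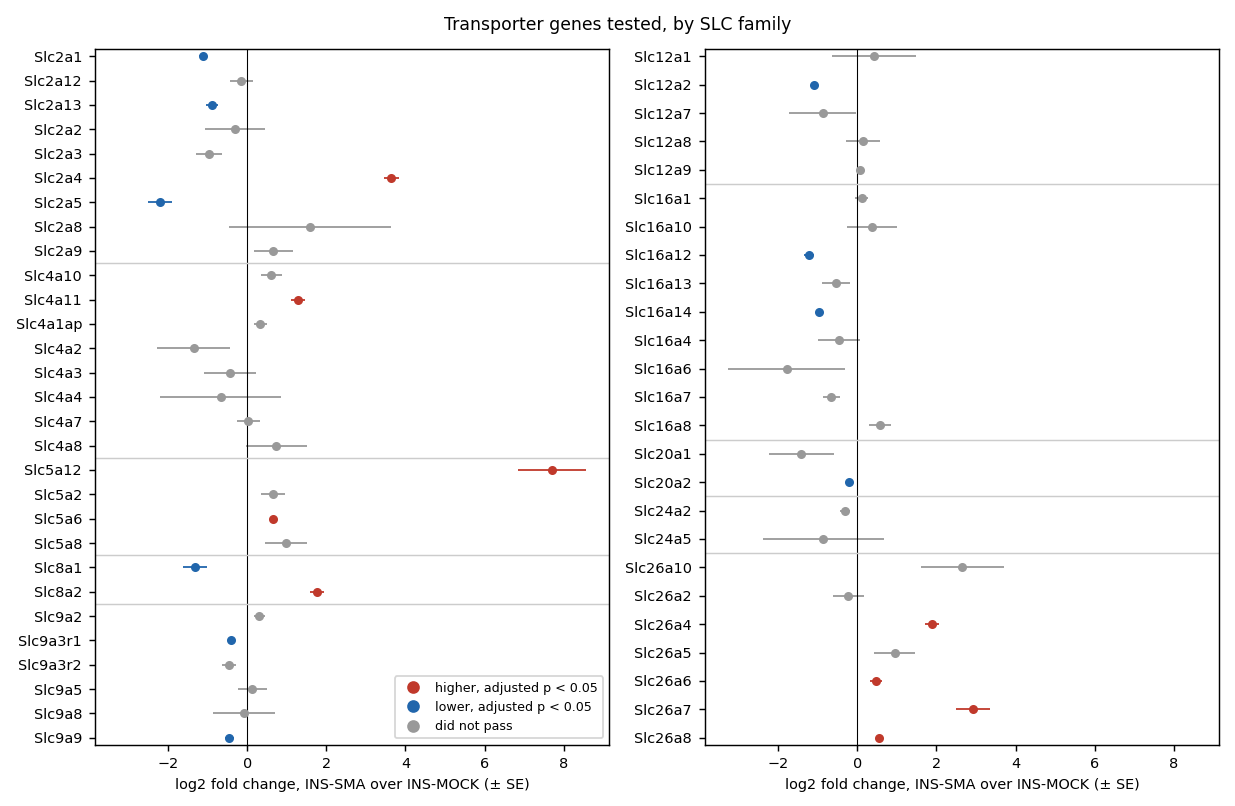
Log2 fold change of INS-SMA over INS-MOCK (horizontal axis) for 54 of the 58 tested genes, grouped by SLC family, with bars for the standard error. Red points are 9 genes that rose, blue points the 10 that fell and grey points 35 that did not pass. Slc5a12 had no counts in INS-MOCK, so its plotted value depends on the prior count and is no bound.

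**Figure D2:**
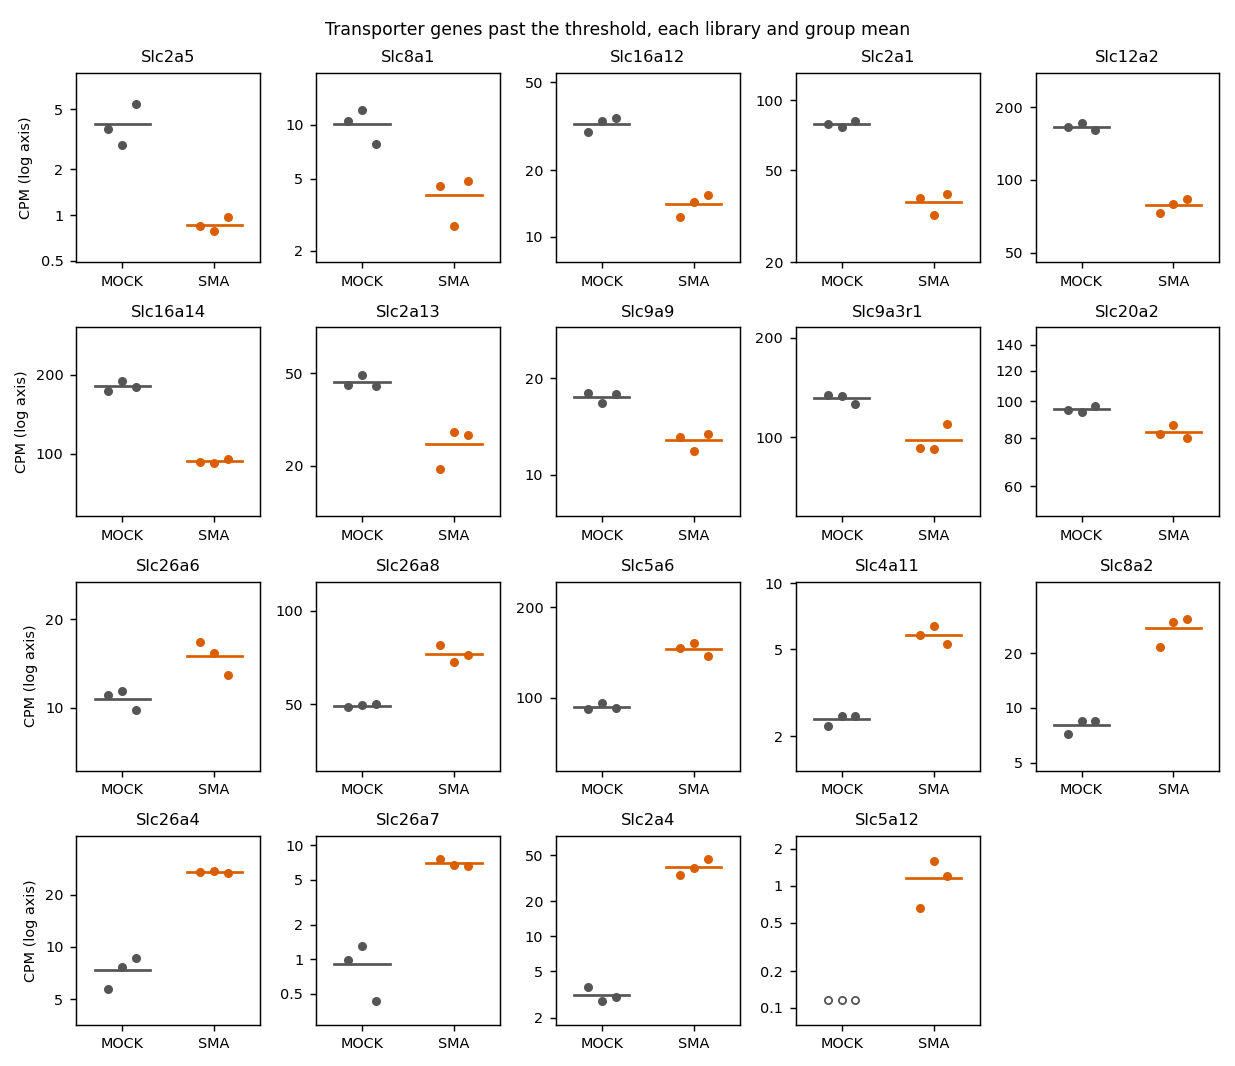
Level of 19 of the 20 genes past the threshold in the 6 libraries, in CPM on a log axis that differs between panels, ordered from the largest fall to the largest rise. Points are libraries, lines are group means, and open points at the level of 3 counts stand for libraries with 0 counts. In all 19 panels the INS-MOCK and INS-SMA libraries do not overlap.

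Sequence just upstream of the start is shown for 4 of the changed genes, to set beside each other a sodium-calcium exchanger that fell and one that rose (Slc8a1 and Slc8a2), the glucose transporter Slc2a1 that fell, and the vitamin transporter Slc5a6 that rose. The 250 bases before the annotated start come from RefSeq, build GRCr8, and are printed 5′ to 3′ on the strand of the gene. Of the 72 genes, 52 matched an entry by gene identifier or symbol. Capitals mark the GC box GGGCGG, the E-box CACGTG and the TATA box TATAAA, searched on both strands. Strands are those of GRCr8. The deposited table places Slc8a1 on the minus strand of chromosome 6, so the sources differ for that gene.
Slc2a1, chr5:138002272-138002521, plus strand: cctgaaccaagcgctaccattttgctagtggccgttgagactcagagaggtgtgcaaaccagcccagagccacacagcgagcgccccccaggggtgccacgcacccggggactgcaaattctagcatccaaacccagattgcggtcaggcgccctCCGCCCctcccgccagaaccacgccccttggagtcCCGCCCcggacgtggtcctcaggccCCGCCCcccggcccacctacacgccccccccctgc
Slc5a6, chr6:31040150-31040399, plus strand: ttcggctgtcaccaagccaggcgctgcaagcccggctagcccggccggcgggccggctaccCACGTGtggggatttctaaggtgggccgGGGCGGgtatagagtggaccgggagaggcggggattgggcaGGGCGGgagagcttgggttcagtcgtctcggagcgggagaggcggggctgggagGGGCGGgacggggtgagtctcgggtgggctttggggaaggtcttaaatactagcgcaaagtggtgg
Slc8a1, chr6:19023309-19023558, plus strand: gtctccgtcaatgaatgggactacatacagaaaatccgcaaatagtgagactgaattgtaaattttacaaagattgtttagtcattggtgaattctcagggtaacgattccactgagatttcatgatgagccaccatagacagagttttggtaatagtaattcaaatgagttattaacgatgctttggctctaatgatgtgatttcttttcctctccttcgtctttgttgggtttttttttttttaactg
Slc8a2, chr1:85950512-85950761, plus strand: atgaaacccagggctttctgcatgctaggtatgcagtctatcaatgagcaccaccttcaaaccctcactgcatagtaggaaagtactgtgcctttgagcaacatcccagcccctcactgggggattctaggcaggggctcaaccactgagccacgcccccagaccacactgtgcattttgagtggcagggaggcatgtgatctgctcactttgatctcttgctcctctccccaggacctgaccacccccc

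The Slc2a1 and Slc5a6 windows were rich in G and C (68.4% and 68.0%) and held 3 GC boxes each, and the Slc5a6 window held 1 E-box. Neither exchanger window held any of the 3 motifs, with 35.2% G and C for Slc8a1 and 55.2% for Slc8a2. A GC box was found in 19 of the 52 matched windows (36.5%) and in 30.5% of all 33469 RefSeq windows of that length. An E-box stood in 9 of the 52 (17.3%), beside 5.59% of all windows, and a TATA box in 3 (5.77%), beside 12.9%. Among matched genes that rose, 2 of 5 windows had a GC box and 1 had an E-box, and among those that fell the numbers were 4 and 0 of 8. These matches describe letters in the windows only.

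Among the SLC2 sugar transporters, Slc2a4 rose while Slc2a1, Slc2a5 and Slc2a13 fell, and the remaining 5 tested genes did not pass (44.4% past the threshold, beside 55.1% of all tested genes). Slc2a4 (chromosome 10, 56552983 to 56558487, minus strand in the deposited table) encodes GLUT4, the insulin-responsive glucose transporter of muscle and fat. It stood at 3.63, 2.78 and 3.03 CPM in the INS-MOCK libraries and at 33.6, 38.8 and 46.0 CPM in the INS-SMA libraries. All INS-SMA libraries were far above all INS-MOCK libraries, a 12.5-fold higher mean (log2 fold change 3.64, SE 0.18, edgeR adjusted p = 3.54e-05). It kept its call under all 16 alternatives, with log2 fold changes of 3.52 to 3.76.

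Slc2a1 (GLUT1), the glucose transporter of most cell types (chromosome 5, 138154673 to 138182897), was at 79.3, 76.7 and 81.8 CPM in INS-MOCK and 38.0, 32.0 and 39.3 CPM in INS-SMA. The groups were well apart and each was narrow (log2 fold change -1.12, SE 0.09, edgeR adjusted p = 2.17e-04). Slc2a5, the fructose transporter, was low throughout, at 3.72, 2.91 and 5.39 CPM in INS-MOCK and 0.841, 0.780 and 0.972 CPM in INS-SMA (log2 fold change -2.20, SE 0.31, edgeR adjusted p = 0.00187). Its call was lost in the most abundant of its 2 rows (log2 fold change -2.82, edgeR adjusted p = 0.119). The proton-coupled myo-inositol transporter gene Slc2a13 went from 45.8 ± 2.91 in INS-MOCK to 24.8 ± 4.66 CPM in INS-SMA (log2 fold change -0.89, SE 0.16, edgeR adjusted p = 0.00468).

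Slc2a2 did not pass the test (log2 fold change -0.30, SE 0.76, edgeR adjusted p = 0.77). Its libraries stood at 292, 134 and 607 CPM in INS-MOCK and 185, 121 and 533 CPM in INS-SMA. The groups overlapped over nearly their whole range, and within a group the highest library was 4.53 times the lowest in INS-MOCK and 4.38 times in INS-SMA with 0.5 CPM added to both. The larger of its 2 transcript rows held 94.8% to 98.5% of its counts in every library. The sign turned without INS-MOCK replicate 3 (0.39) or without INS-SMA replicate 2 (0.06), and no alternative gave a call. The level of this beta cell marker was thus not shown to differ, whereas Ins1, Ins2, Pdx1, Nkx6-1 and Slc30a8 fell in the same fit. Mafa (log2 fold change -1.67, edgeR adjusted p = 0.187) and Ucn3 (log2 fold change -1.83, edgeR adjusted p = 0.0879) of the same list did not pass either.

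The neuronal glucose transporter gene Slc2a3 had a log2 fold change of -0.97 and groups that did not overlap (4.60 ± 0.617 in INS-MOCK and 2.35 ± 0.843 CPM in INS-SMA), and missed the threshold (edgeR adjusted p = 0.0559; 0.0125 with DESeq2). Slc2a12 (log2 fold change -0.15) and the urate transporter gene Slc2a9 (0.65) did not pass. Slc2a8, an intracellular hexose transporter, was at 23.4, 0.628 and 0.598 CPM in INS-MOCK and 28.4, 45.5 and 0.156 CPM in INS-SMA. In 1 INS-MOCK library and 2 INS-SMA libraries it was above 20 CPM, and in the others below 1 CPM.

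The SLC5 sodium-coupled transporters included 2 genes called higher, of 4 tested, beside 28.1% higher over all tested genes. That count includes Slc5a12, whose call carries the limit given below, so it cannot be set against the 28.1%. Slc5a12 encodes a sodium-coupled monocarboxylate transporter that carries lactate. All INS-MOCK libraries were at 0 counts, while those of INS-SMA held 11, 35 and 31 counts, or 0.661, 1.61 and 1.21 CPM. Its INS-SMA mean was 8.98 times a floor of 3 counts per INS-MOCK library, with no error counted for that mean. It entered the test through its INS-SMA counts alone, so the call (edgeR adjusted p = 0.00404) is no separate support for a rise. A stricter filter on low counts left it untested, and 1 of the other alternatives ended its call. Slc5a6, the transporter of biotin, pantothenate and lipoate, was at 91.4, 96.0 and 92.2 CPM in INS-MOCK and 146, 152 and 138 CPM in INS-SMA, a rise of modest size and little spread (log2 fold change 0.64, SE 0.05, edgeR adjusted p = 1.87e-04). The sodium-glucose cotransporter gene Slc5a2 (0.329 ± 0.063 in INS-MOCK and 0.522 ± 0.086 CPM in INS-SMA) and the related monocarboxylate transporter gene Slc5a8 (0.476 ± 0.172 in INS-MOCK and 0.956 ± 0.458 CPM in INS-SMA) did not pass, at log2 fold changes of 0.65 and 0.99.

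Among the SLC16 monocarboxylate transporters, 1 of 10 tested genes rose and 2 fell (30% in all, beside 55.1% of all tested genes). The creatine transporter gene Slc16a12 fell from 29.9, 33.3 and 34.4 CPM to 12.3, 14.3 and 15.4 CPM (log2 fold change -1.22, SE 0.12, edgeR adjusted p = 4.66e-04). Slc16a14, a member whose substrate is not well established, fell from 174, 190.1 and 179 CPM to 93.0, 91.8 and 95.1 CPM. The spread in INS-SMA was small beside that fall (log2 fold change -0.96, SE 0.04, edgeR adjusted p = 2.73e-05).

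The lactate and pyruvate carriers proper gave no call. Slc16a1 (MCT1), which beta cells normally keep low, was at 9.99, 10.3 and 10.9 CPM in INS-MOCK and 10.3, 10.1 and 13.3 CPM in INS-SMA (log2 fold change 0.11, SE 0.16, edgeR adjusted p = 0.583), and the groups overlapped. Slc16a7 (MCT2) had groups that did not overlap (6.86 ± 1.503 in INS-MOCK and 4.36 ± 0.377 CPM in INS-SMA) and lay just above the threshold (edgeR adjusted p = 0.0504). It passed with DESeq2, upper-quartile factors, a stricter count filter and without INS-MOCK replicate 3, with an adjusted p of 0.0195 to 0.379 among the alternatives, and its most abundant row had the opposite sign (0.36). Slc16a8 (log2 fold change 0.57), Slc16a4 (-0.47), Slc16a13 (-0.54) and the aromatic amino acid transporter gene Slc16a10 (0.38) did not pass. In its most abundant row Slc16a8 passed (edgeR adjusted p = 0.0377). Slc16a6 was at 10.6, 8.16 and 4.15 CPM in INS-MOCK and 5.65, 0 and 1.05 CPM in INS-SMA, with 1 INS-SMA library at 0 counts.

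The plasma membrane sodium-calcium exchangers of the SLC8 family moved in opposite directions. These exchangers use the sodium gradient to remove calcium after excitation. Slc8a1 (NCX1; chromosome 6, 4258991 to 4520604) was at 10.5, 12.1 and 7.82 CPM in INS-MOCK and 4.57, 2.75 and 4.86 CPM in INS-SMA. Slc8a2 (NCX2; chromosome 1, 78025995 to 78060111) was at 7.23, 8.47 and 8.51 CPM in INS-MOCK and 21.6, 29.7 and 31.1 CPM in INS-SMA. For each gene the groups were apart, Slc8a1 lower (log2 fold change -1.32, SE 0.30, edgeR adjusted p = 0.0121) and Slc8a2 higher (log2 fold change 1.77, SE 0.18, edgeR adjusted p = 4.76e-04).

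Both calls depended on how rows were summed. Slc8a2 has 4 rows, and in its most abundant row it was at log2 fold change 4.57, edgeR adjusted p = 0.162. That row was at 1.03, 0.403 and 0 CPM in INS-MOCK and 0, 20.7 and 12.5 CPM in INS-SMA. Slc8a1 has 5 rows, and its most abundant row was at log2 fold change -1.62, edgeR adjusted p = 0.0503. Slc8a3 had 73 counts in 1 INS-MOCK library, 27 in 1 INS-SMA library and 0 in the others, and was not tested. In the related SLC24 family of potassium-dependent sodium-calcium exchangers, Slc24a2 was at 82.1, 96.1 and 78.1 CPM in INS-MOCK and 61.0, 78.6 and 66.6 CPM in INS-SMA, overlapping ranges that did not pass (log2 fold change -0.31, SE 0.12, edgeR adjusted p = 0.0824). It passed under 3 of 16 alternatives, among them DESeq2 (adjusted p = 0.0353) and the fit without INS-SMA replicate 2 (log2 fold change -0.42, edgeR adjusted p = 0.0354). Slc24a5, an exchanger of intracellular membranes, was at 132, 128 and 128 CPM in INS-MOCK and 0, 106 and 107 CPM in INS-SMA. It passed without INS-SMA replicate 1, the library at 0, at log2 fold change -0.27, edgeR adjusted p = 0.00455.

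Of the SLC12 cation-chloride cotransporters, 1 of 6 tested genes passed (16.7%, beside 55.1% of all tested genes). Slc12a2 encodes NKCC1, which loads cells with chloride (chromosome 18, 52917124 to 52985261). It fell from 165, 173 and 161 CPM in INS-MOCK to 72.9, 79.4 and 83.4 CPM in INS-SMA (log2 fold change -1.08, SE 0.06, edgeR adjusted p = 5.50e-05). The highest INS-SMA library was far below the lowest INS-MOCK library, and the call held under all 16 alternatives (log2 fold changes of -1.13 to -0.99). 

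Slc12a7 (KCC4), a potassium-chloride cotransporter that moves chloride out, was at 69.1, 68.5 and 69.0 CPM in INS-MOCK and 89.2, 12.02 and 11.7 CPM in INS-SMA, so that INS-SMA replicate 1 alone lay above INS-MOCK. Without that library its log2 fold change was -2.54 and not -0.87 (edgeR adjusted p = 6.59e-05 and not 0.436). Slc12a9, a relative without a settled substrate, was at 46.4 ± 4.39 in INS-MOCK and 48.6 ± 0.199 CPM in INS-SMA (log2 fold change 0.07, SE 0.08, edgeR adjusted p = 0.54), Slc12a8 had a log2 fold change of 0.14, and Slc12a1 was low in both groups (0.365 ± 0.330 in INS-MOCK and 0.497 ± 0.234 CPM in INS-SMA).

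The SLC26 anion exchangers were the family with the most rises, 4 of 7 tested genes and 0 falls, beside 28.1% higher over all tested genes. Slc26a4 (pendrin; chromosome 6, 50808923 to 50846965), an exchanger of chloride, bicarbonate and iodide, went from 5.70, 7.71 and 8.59 CPM in INS-MOCK to 27.2, 27.3 and 26.8 CPM in INS-SMA. Its INS-SMA libraries were nearly equal and all were well above INS-MOCK (log2 fold change 1.88, SE 0.18, edgeR adjusted p = 3.52e-04). Slc26a7, a chloride transporter of kidney, stomach and thyroid, went from 0.991, 1.30 and 0.427 CPM to 7.57, 6.70 and 6.57 CPM (log2 fold change 2.93, SE 0.44, edgeR adjusted p = 0.00234). Slc26a8, best known from sperm, went from 48.9, 49.7 and 49.96 CPM to 77.6, 68.4 and 71.9 CPM, a smaller rise with little spread (log2 fold change 0.55, SE 0.06, edgeR adjusted p = 7.11e-04).

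Slc26a6, an exchanger of chloride, bicarbonate and oxalate, went from 11.1, 11.4 and 9.79 CPM to 16.8, 15.4 and 12.9 CPM, with narrow but separate ranges (log2 fold change 0.48, SE 0.15, edgeR adjusted p = 0.0367). Its call was lost under 8 of 16 alternatives (edgeR adjusted p up to 0.115), among them every left-out library but INS-SMA replicate 3, and its most abundant row had the opposite sign (log2 fold change -0.72, edgeR adjusted p = 0.0567). The call of Slc26a4 was also lost in its most abundant of 3 rows (log2 fold change 1.24, edgeR adjusted p = 0.477). Slc26a10 (0.237 ± 0.306 in INS-MOCK and 1.499 ± 0.314 CPM in INS-SMA) had groups that did not overlap but did not pass (log2 fold change 2.65, SE 1.06, edgeR adjusted p = 0.0817). It passed with DESeq2 and without INS-MOCK replicate 2. Slc26a2, a sulfate transporter gene, and Slc26a5 (prestin) were at log2 fold changes of -0.22 and 0.95. The chloride channel gene Cftr, which works beside SLC26 exchangers in epithelia and was in the list of acinar and duct markers, was without counts in INS-MOCK. The INS-SMA libraries stood at 8.59, 9.27 and 7.08 CPM, a mean of 64.5 times a floor of 3 counts per INS-MOCK library. Cftr too entered the test through its INS-SMA counts alone (edgeR adjusted p = 2.51e-04).

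Bicarbonate transporters of the SLC4 family were mostly uncalled. Slc4a11, a relative that is not thought to carry bicarbonate, was the only one of 8 tested genes that passed (12.5%, beside 55.1% of all tested genes), from 2.23, 2.47 and 2.48 CPM in INS-MOCK to 5.83, 6.38 and 5.29 CPM in INS-SMA (log2 fold change 1.28, SE 0.18, edgeR adjusted p = 0.00174; lost in its most abundant row, log2 fold change 0.50, edgeR adjusted p = 0.494). The chloride-bicarbonate exchanger genes Slc4a2 (23.2 ± 23.6 in INS-MOCK and 9.02 ± 7.41 CPM in INS-SMA) and Slc4a3 (15.0 ± 6.57 in INS-MOCK and 11.1 ± 7.89 CPM in INS-SMA) varied several-fold within groups. So did the sodium-bicarbonate cotransporter genes Slc4a4, with 1 INS-SMA library at 0 counts and the other two at 9.54 and 15.2 CPM, and Slc4a8 (9.71 ± 5.56 in INS-MOCK and 16.2 ± 10.9 CPM in INS-SMA). Slc4a7 was nearly level (log2 fold change 0.02, SE 0.29, edgeR adjusted p = 0.952), Slc4a10 had a log2 fold change of 0.61, and the adaptor gene Slc4a1ap was at log2 fold change 0.34, SE 0.16, edgeR adjusted p = 0.133. Slc4a1ap passed with DESeq2 (adjusted p = 0.0493) and without INS-MOCK replicate 3 (log2 fold change 0.50, edgeR adjusted p = 0.0248).

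Of 8 tested SLC9 genes, most of which encode sodium-proton exchangers, 2 fell and 0 rose. That is 25% lower, beside 27% of all tested genes. The endosomal exchanger gene Slc9a9 fell from 17.5 ± 0.716 in INS-MOCK to 12.8 ± 0.835 CPM in INS-SMA (log2 fold change -0.45, SE 0.11, edgeR adjusted p = 0.0139), though its most abundant of 3 rows had the opposite sign (log2 fold change 0.37, edgeR adjusted p = 0.358). The scaffold gene Slc9a3r1 (NHERF1) fell from 134, 133 and 126 CPM to 93.1, 92.4 and 109.8 CPM (log2 fold change -0.41, SE 0.08, edgeR adjusted p = 0.0064), and Slc9a3r2 had a log2 fold change of -0.46 without passing. Slc9a2 (log2 fold change 0.31), Slc9a5 (0.12) and the Golgi exchanger gene Slc9a8 (-0.09) did not pass either. Slc9a2, whose groups did not overlap, passed with DESeq2 and with no scaling factors.

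The SLC20 sodium-phosphate cotransporters are the main route of phosphate into most cells. Slc20a2 (PiT2) fell from 94.9, 93.9 and 97.2 CPM to 82.3, 86.9 and 80.2 CPM, a small change beyond the spread of its libraries (log2 fold change -0.20, SE 0.05, edgeR adjusted p = 0.0132). The call was lost under 4 of 16 alternatives, among them no normalisation factors (log2 fold change -0.11, edgeR adjusted p = 0.0972), the most abundant of its 6 rows (log2 fold change -1.70, edgeR adjusted p = 0.136) and the fit without INS-MOCK replicate 3 (log2 fold change -0.18, edgeR adjusted p = 0.0511). Slc20a1 (PiT1) ranged from 26.7 to 143 CPM in INS-MOCK and from 11.8 to 53.5 CPM in INS-SMA and did not pass (log2 fold change -1.41, SE 0.82, edgeR adjusted p = 0.203).

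Variation between libraries of a group was large for several of these genes. In 10 of the 58 tested genes (17.2%) the highest library of a group was at least 5-fold above the lowest, with 0.5 CPM added to both, beside 8.79% of all tested genes. Among them were Slc2a8, Slc4a2, Slc4a4, Slc4a8, Slc9a8, Slc12a7, Slc16a6, Slc20a1 and Slc24a5, and 0 of the 10 passed. Among the other 48 genes 20 passed (41.7%). Over all genes, 59.7% of those under the 5-fold limit in both groups passed and 6.56% of those at or above it. The high and low libraries differed from gene to gene. INS-SMA replicate 1 was at 0 for Slc24a5 and Slc4a4 and was the highest library for Slc12a7. Between 32.7% and 36.7% of each library's counts lay in rows without a gene name, and their part in these values was not tested. The 5-fold limit was set after the values were seen.

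**Figure D3:**
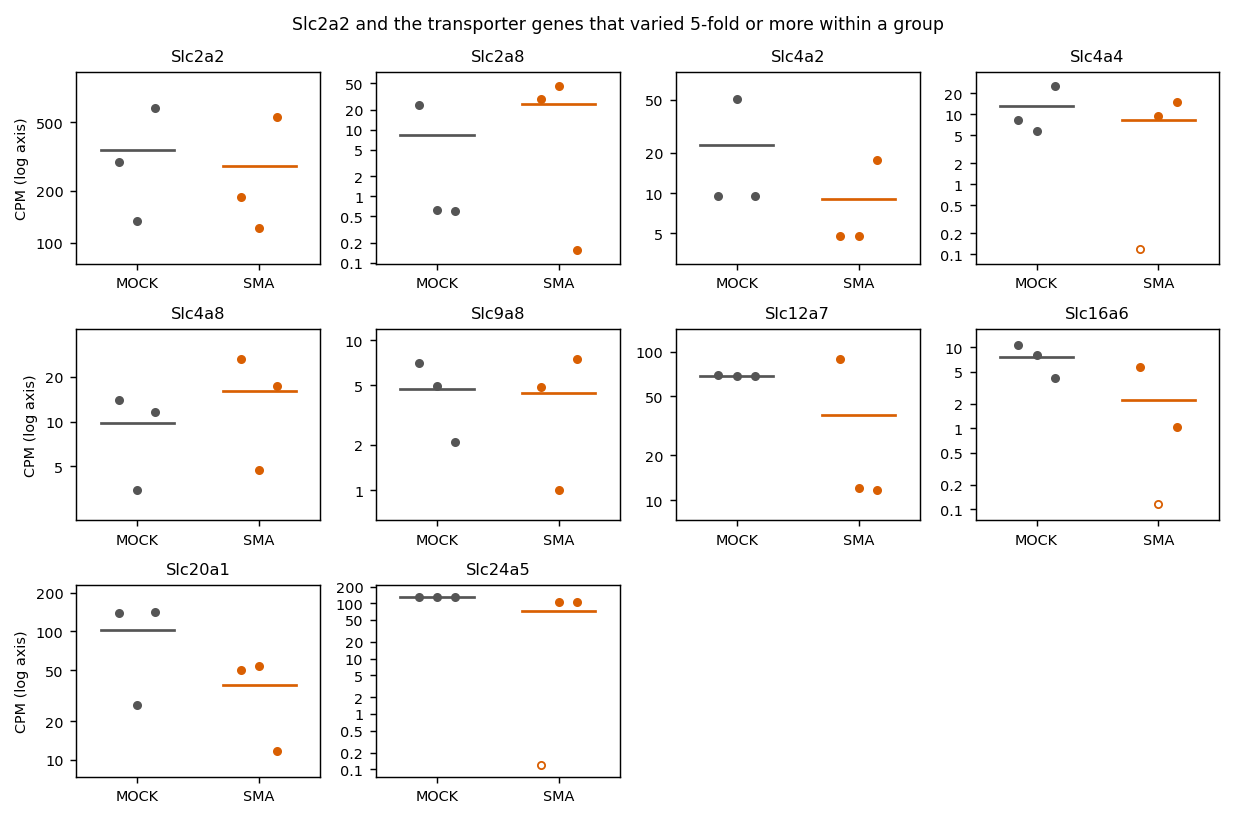
Level of Slc2a2 and of 9 of the 10 tested genes that varied at least 5-fold within a group, in CPM on a log axis that differs between panels. Points are libraries, lines are group means and open points at the level of 3 counts stand for libraries with 0 counts, as for Slc24a5, where the other INS-SMA libraries were at 106 and 107 CPM.

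Genes whose products power, carry to the membrane or regulate these transporters were read from the same fit. Of 41 such genes 40 were in the table and 31 were tested, and 4 rose and 14 fell (58.1%, beside 55.1% of all tested genes), with a median log2 fold change of -0.46. In the most abundant row of each gene 2 rose and 10 fell. Slc9a3r1 and Slc9a3r2 stand in this list as well. Without them 4 rose and 13 fell of 29.

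Bsg (basigin) and Emb (embigin), the chaperones that bring SLC16 carriers to the membrane, moved apart. Bsg was at 771, 768 and 784 CPM in INS-MOCK and 209.6, 238 and 237 CPM in INS-SMA (log2 fold change -1.76, SE 0.06, edgeR adjusted p = 1.12e-05), and Emb was at 244, 237 and 223 CPM and 369.8, 365 and 369.6 CPM (log2 fold change 0.65, SE 0.04, edgeR adjusted p = 8.15e-05). In both genes the libraries of a group were close together and the groups far apart. Ldhb, a lactate dehydrogenase subunit, fell from 8.97 ± 1.33 in INS-MOCK to 1.34 ± 0.348 CPM in INS-SMA (log2 fold change -2.73, SE 0.27, edgeR adjusted p = 4.53e-04). Mpc1, of the mitochondrial pyruvate carrier, had a log2 fold change of -2.80 (edgeR adjusted p = 0.0155) but ranged from 3.09 to 18.2 CPM in INS-MOCK.

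The sodium pump, which maintains the gradient that SLC5, SLC8, SLC9, SLC12 and SLC20 members draw on, was lower in its beta subunits. Atp1b1 fell from 754 ± 27.2 in INS-MOCK to 348 ± 17.3 CPM in INS-SMA (log2 fold change -1.11, SE 0.05, edgeR adjusted p = 2.57e-05) and Atp1b3 from 58.6 ± 6.07 in INS-MOCK to 20.1 ± 2.56 CPM in INS-SMA (log2 fold change -1.55, SE 0.13, edgeR adjusted p = 2.50e-04). Atp1b2 fell as well (log2 fold change -1.29, edgeR adjusted p = 0.0495). The endoplasmic reticulum calcium pump genes Atp2a2 (log2 fold change -1.36) and Atp2a3 (-0.32) fell.

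Kinases of the WNK pathway, which control the SLC12 cotransporters, went both ways. Wnk1 fell from 1016 ± 15.7 in INS-MOCK to 553 ± 25.9 CPM in INS-SMA (log2 fold change -0.88, SE 0.04, edgeR adjusted p = 3.15e-05) and Wnk3 fell (log2 fold change -0.73). Wnk2 rose from 156 ± 13.6 in INS-MOCK to 399 ± 30.9 CPM in INS-SMA (log2 fold change 1.35, SE 0.09, edgeR adjusted p = 9.01e-05), and the downstream kinase gene Oxsr1 rose from 94.3 ± 4.98 in INS-MOCK to 115 ± 6.56 CPM in INS-SMA (log2 fold change 0.28, SE 0.06, edgeR adjusted p = 0.0117), whereas its relative Stk39 was nearly level (log2 fold change -0.04, edgeR adjusted p = 0.519). The calls of Wnk2 and Oxsr1 were lost in the most abundant row (log2 fold change 2.45, edgeR adjusted p = 0.0616 and log2 fold change 0.76, edgeR adjusted p = 0.329). The carbonic anhydrase gene Car2, which supplies bicarbonate to exchangers, rose from 4.26 ± 0.269 in INS-MOCK to 9.60 ± 0.720 CPM in INS-SMA (log2 fold change 1.17, SE 0.15, edgeR adjusted p = 0.00124). Chp1, a cofactor of sodium-proton exchangers, fell from 233 ± 4.93 in INS-MOCK to 97.8 ± 3.90 CPM in INS-SMA (log2 fold change -1.25, SE 0.04, edgeR adjusted p = 1.20e-05), and the phosphate exporter gene Xpr1 fell by 0.60 on the log2 scale.

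**Figure D4:**
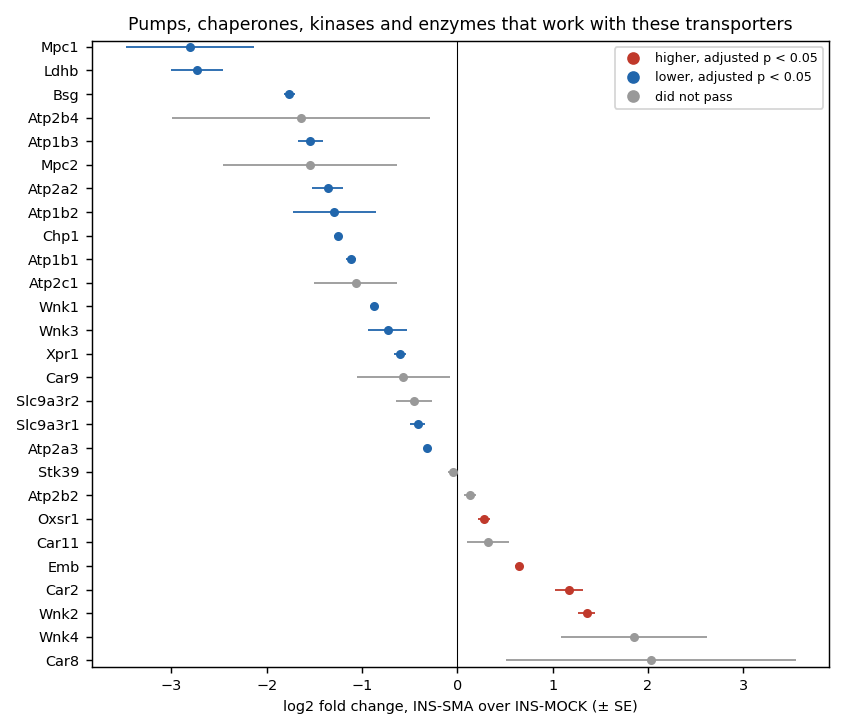
Log2 fold change of INS-SMA over INS-MOCK (horizontal axis) with its standard error for 27 of the 31 tested genes that power, chaperone or regulate these transporters. Red points rose (4 genes, Oxsr1 to Wnk2), blue points fell (13 genes, with Mpc1, Ldhb and Bsg lowest), and grey points did not pass.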

How the data were processed

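Total RNA from 6 libraries, 3 of INS-MOCK and 3 of INS-SMA cells, was sequenced on an Illumina NovaSeq instrument, per the labels' protocols. The authors deposited 1 table of raw read counts per transcript row, with 101905 rows, of which 35604 carry a gene name. The submitters' processing notes name HISAT2, HISAT and DESeq2 and the builds hg19 and rn6. For the counting program, annotation and use of strand, the sources used here give nothing, so reads of overlapping or antisense genes may be shared. Coordinates are those of the deposited table, and rn6 is the only rat build named.

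Counts of named rows were summed per gene (21553 genes, 6254 of them from several rows), and rows without a name were left out of library sizes. Genes were filtered with filterByExpr, leaving 13363, scaled by TMM and tested with edgeR 4.0.16 (R 4.3.3) by its quasi-likelihood F-test with Benjamini-Hochberg adjustment over all tested genes at 0.05. The procedure was tested on simulated data. SE is the absolute log2 fold change over the square root of F. Transcript lengths were not used, so CPM does not rank transcript levels between genes. The choice of named genes and the marker sums rest on CPM nonetheless. The labels call the libraries biological replicates, and no 2 libraries of a group differed by as little as sampling noise (45.0 to 58.6 units of chi-square for each degree of freedom).

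Genes named were Slc2a2, in each family the gene with the highest mean CPM and up to 2 with the smallest adjusted p, the 5 largest rises and falls among non-overlapping genes averaging 1 CPM or more, and 4 partner genes per direction. Other members are given by family. The results of some genes are not reported here, though counts over the lists include them. Where a left-out library or the alternative row changed a call, the gene was chosen after its values were seen. The members and lists were chosen with earlier results of these data known. Alternatives were DESeq2 1.42.0, other scaling factors, 2 other count filters, the most abundant row of each gene, other library sizes, the replicate number as a block, and leaving out each library.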

Additional observations from a re-analysis of the deposited data

How the results depend on the processing

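Of the 20 transporter-family genes past the threshold, 11 passed under every one of the 16 alternatives (among them Slc2a4, Slc5a6, Slc26a7 and Slc26a8 higher, and Slc2a1, Slc2a13, Slc9a3r1, Slc12a2, Slc16a12 and Slc16a14 lower), and 9 did not. The same share was not computed over all genes that passed, so these genes cannot be ranked against the rest. The alternative that moved the counts most was the most abundant row of each gene. It gave 6 transporter-family genes lower in place of 10, and partner genes 2 higher in place of 4 and 10 lower in place of 14. Of all genes, 5822 of 13255 passed in that fit. It also gave Slc9a9 a log2 fold change of 0.37, opposite in sign. The cause was not tested. Slc2a2 turned to 0.39 without INS-MOCK replicate 3 and to 0.06 without INS-SMA replicate 2, and with each library left out once it lay between -1.17 and 0.39. Leaving out 1 library at a time gave 9 to 11 higher and 10 to 12 lower, and for partner genes 4 to 6 higher and 11 to 14 lower. Of all genes, 6771 to 7001 passed in those fits, with 13735 to 13991 tested. DESeq2 called 13 higher and 13 lower, and 8300 of all 13239 genes passed in it. With no scaling factors the median of all genes was 0.13 and not 0.03.

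The replicate numbers did not pair the libraries: same-numbered libraries had correlations of -0.028, -0.013 and -0.026. With the replicate number as a block, 9 genes were higher and 9 lower, partner genes 4 and 13, and 6294 of all genes passed in place of 7359. The block ended the calls of Slc5a12 (edgeR adjusted p = 0.0597), Slc8a1, Slc20a2 (0.0550) and Slc26a6, and Slc4a8 and Slc24a2 passed with it.

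Depth limits the genes under about 1 CPM: 3 counts correspond to 0.117 to 0.180 CPM, and intervals of counting error do not cover variation between cultures.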

Other observations

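The 14 genes that were too low to test were at 0 counts in at least 1 library, apart from Slc9a3, Slc12a3 and Slc12a5, which had counts in all 6. The kidney thiazide-sensitive cotransporter gene Slc12a3 was at 0.248, 0.224 and 0.171 CPM in INS-MOCK and 0.361, 0.734 and 0.622 CPM in INS-SMA. The exchanger gene Slc24a4 was at 0, 0.224 and 0 CPM in INS-MOCK and 0.481, 2.66 and 0.194 CPM in INS-SMA. The intestinal sodium-glucose cotransporter gene Slc5a1 had no counts in 2 INS-MOCK libraries and 1 INS-SMA library, and its highest level was 0.229 CPM. The neuronal potassium-chloride cotransporter gene Slc12a5 was at 0.171 to 0.672 CPM in INS-MOCK and 0.361 to 0.505 CPM in INS-SMA. Slc2a6 was at 0.972 CPM in 1 INS-SMA library and at 0 or 0.083 CPM in the others.

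For Slc2a2, replicate 3 was the highest and replicate 2 the lowest library in both groups, and with the replicate number as a block its edgeR adjusted p was 0.119 (log2 fold change -0.33). Over all tested genes the same-numbered libraries did not deviate together.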
